A study of Panax notoginseng with 12 samples.

Results

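The enzymes that make GDP-mannose and turn it into ascorbate were followed in roots of Panax notoginseng, a medicinal herb of the ginseng family, under 4 nitrogen supplies. Members were chosen by the description of the best protein match of each locus, which had to name phosphomannomutase, mannose-6-phosphate isomerase, mannose-1-phosphate guanylyltransferase (here GDP-mannose pyrophosphorylase), any GDP-mannose enzyme or transporter, GDP-L-galactose phosphorylase or L-galactono-1,4-lactone dehydrogenase. Of 146330 assembled loci, 30 matched, and 22 of these were above 1 FPKM in at least 1 library. FPKM are fragments scaled to transcript length and to the mapped fragments of a library, so that levels of loci of different length can be set side by side. The level of 1 FPKM chose the members. Of the tests, only a second fit over all loci above 1 FPKM, used for XLOC_025156 and as an alternative, rests on it. Just inside it was XLOC_087271, a GDP-mannose transporter locus, at 1.13 FPKM in its highest library, and just outside was XLOC_091741, an L-galactono-1,4-lactone dehydrogenase locus, at 0.498 FPKM. Of the 8 loci left out, 6 were listed at 0 in every library.

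Ascorbate, or vitamin C, is the most abundant soluble antioxidant of plant cells. In the main plant route, mannose-6-phosphate is made into mannose-1-phosphate and joined to GDP, and GDP-mannose is then turned into GDP-L-galactose, L-galactose and L-galactono-1,4-lactone, which is oxidised to ascorbate in the inner mitochondrial membrane. GDP-mannose is also the sugar donor for mannose in glycoproteins and cell walls and the precursor of GDP-L-fucose, and GDP-L-galactose supplies a sugar of the pectin rhamnogalacturonan II.

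The 4 groups had 3 libraries each. According to the methods, seedlings in hydroponic culture were pretreated for a week in complete solution, moved to 15 mM ammonium (15A), 15 mM nitrate (15N), 15 mM of each (15AN) or control solution (CK), and harvested on day 3. All solutions held the nitrification inhibitor dicyandiamide, and the salts were ammonium sulphate, calcium nitrate and ammonium nitrate, so that the counterion differed with the nitrogen form. The control solution held no nitrogen, as CK is described for this study. The labels call the plants 3 days old and untreated while also naming the nitrogen form of each library, whereas the methods describe plants of 2 years. The groups used here follow the nitrogen form. The RNA had been pooled, so p-values measure only the spread between these libraries, which may be technical. The reads came from whole roots, in which fewer cells of a type and less RNA per cell cannot be told apart.

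Changes were tested in log2(FPKM + 1) with limma over 22592 loci, those whose mean reached 5 FPKM in any group. A locus is called where the adjusted p was under 0.05 and the log2 fold change above 1 or below -1, and "rose" and "fell" are kept for called loci. Of the 22 members, 20 reached the level for testing. Errors of FPKM are SD over the 3 libraries of a group, and errors of log2 fold changes are standard errors. Without read counts in the table, the precision of a value is known only from the spread of the libraries.

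Facts of the whole table bear on every level below. Summed FPKM per library were 2042250 to 2593466 in 15A, 2002096 to 2174581 in 15N, 1776098 to 1800638 in 15AN and 1420310 to 1517711 in CK. With every library brought to 1 common total, the median over all tested loci, as log2 fold change against CK, moved to -0.50 for 15A, -0.41 for 15N and -0.20 for 15AN, in place of 0.08, 0.08 and 0.07 as deposited. Levels of 39 loci of root markers were summed, of which 27 were above 1 FPKM and 4 were listed at 0. Their summed level was 1343 to 1802 FPKM in 15A, 1051 to 1139 in 15N, 1614 to 1701 in 15AN and 2023 to 2164 in CK. Most of it was PIP aquaporin, and high affinity nitrate transporters summed to at most 1.15 FPKM. The sum therefore follows the aquaporins and is no check of the root label by the other markers. Casparian strip membrane proteins summed to 3.19 FPKM in 15A replicate 1, against 16.9 and 15.4 in the other 15A libraries. Root cap or root hair proteins were at 221 FPKM in that library, against 198 and 205. Transcripts of leaf markers were also present, and whether they came from green tissue or from root cells was not tested. Of 76 loci of leaf markers, 37 were above 1 FPKM and 33 were listed at 0, and their summed level was 544 to 1758 FPKM in 15A, 540 to 607 in 15N, 523 to 565 in 15AN and 1245 to 1345 in CK. The value of 1758 belongs to 15A replicate 1, which stood apart from 563 and 544 in the other 15A libraries. The part of this RNA in the results on the enzymes was not tested.

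The 22 members lay on 22 different scaffolds, and 21 overlapped an annotated gene. The nucleotide search named the same enzyme for 16 of them and gave no hit for 1. Their spans were 257 to 34658 nt, with a median of 6588 nt. Their mean level over the 12 libraries was 0.683 to 109.6 FPKM with a median of 13.2, against 5.56 FPKM for the loci of the whole table above 1 FPKM. The name of the genome build is not given in the sources used here, and positions are those of the deposited table, counted from 1.

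Across the members, the treatments went with lower epimerase transcripts (GDP-mannose 3,5-epimerase, XLOC_114777 and XLOC_011898), while no tested member was called higher against CK. In 15A against CK, 2 of the 20 tested members were called lower, against 6.82% of all tested loci, and 0 higher, against 7.49%. In 15N, 2 were called lower, against 7.64% of all loci, and 0 higher, against 6.85%. In 15AN 1 was called lower, against 6.93%, and 0 higher, against 5.3%. These counts are near the background. At an adjusted p under 0.05 and any fold, limma placed 4 members higher and 7 lower in 15A, where 30.6% of all loci were higher and 20.5% lower. In 15N it placed 4 members higher, against 28.9% of all loci, and 8 lower, against 20.8%. In 15AN it again placed 4 higher, against 26.1%, and 8 lower, against 19.2%. The median log2 fold change of the tested members was -0.07 for 15A, -0.07 for 15N and -0.09 for 15AN, beside 0.08, 0.08 and 0.07 for all tested loci. By role, the 7 tested members of the ascorbate branch, from the epimerase to the lactone dehydrogenase, held 5 of the lower members in 15A and 6 each in 15N and 15AN, and none of the higher ones. This count depends on the filter. XLOC_053046 was tested only through its CK level, and the lactone dehydrogenase XLOC_025156 was left out. In the limma fit over all loci above 1 FPKM, XLOC_025156 was higher in 15A (0.44, adjusted p = 0.024) and in 15N (1.19, adjusted p = 6.2e-05) than in CK. Without 15A replicate 1, the same 2 loci were called in 15A, XLOC_011898 at -1.38 and XLOC_114777 at -1.18. The 3 comparisons share the CK libraries.

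**Figure D1:**
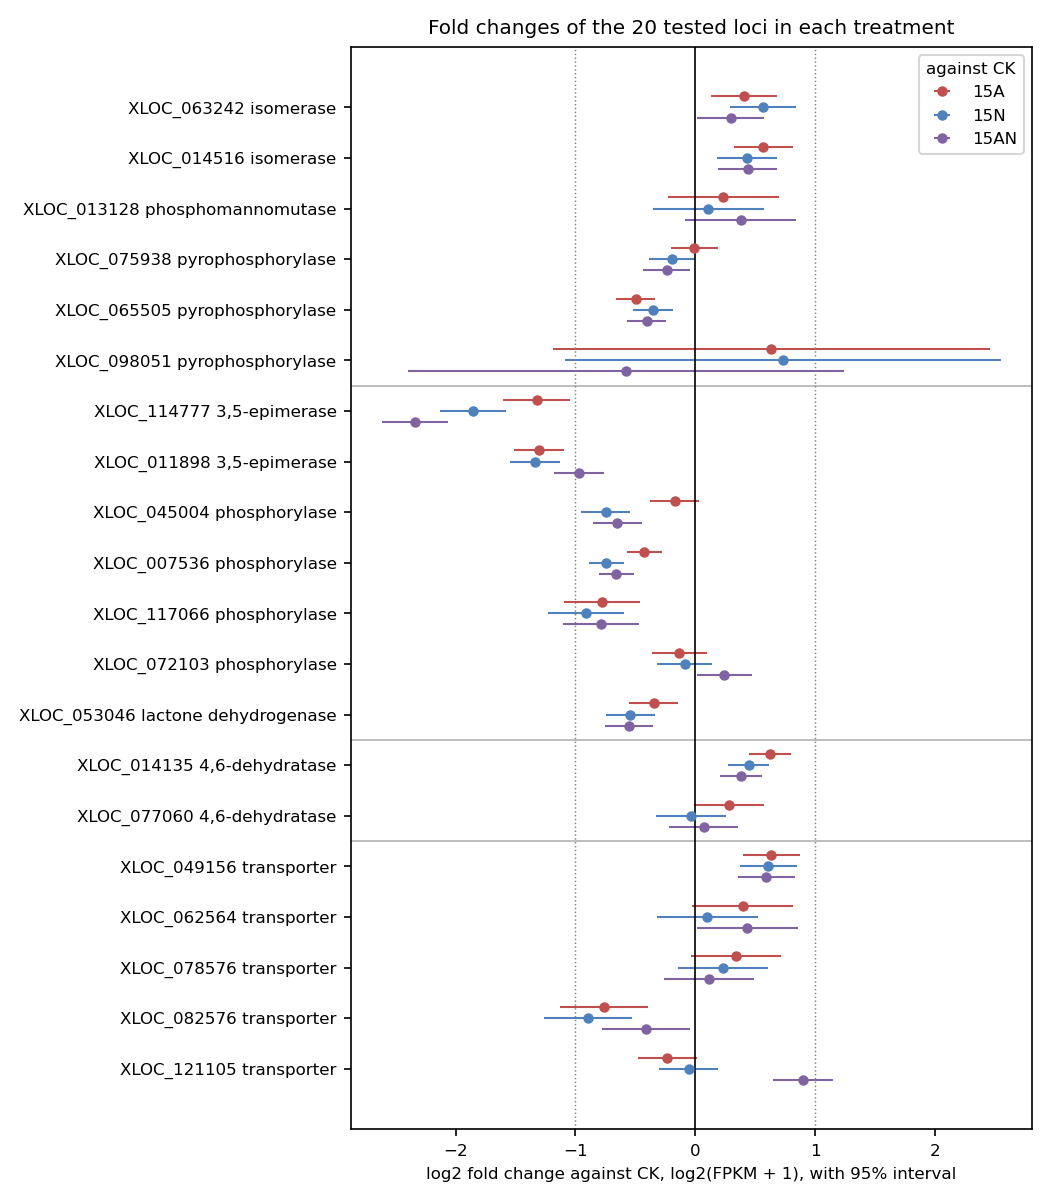
Log2 fold change of log2(FPKM + 1) against CK for the 20 tested loci, with 95% intervals, in 15A (red), 15N (blue) and 15AN (purple). Grey lines part the steps of GDP-mannose synthesis, the ascorbate branch, GDP-mannose 4,6-dehydratase and the transporters. The epimerases XLOC_114777 and XLOC_011898 lie farthest to the left, and the interval of the short pyrophosphorylase locus XLOC_098051 is the widest.

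GDP-mannose 3,5-epimerase, which converts GDP-mannose into GDP-L-galactose, had 2 loci. XLOC_114777 (scaffold431, 19853 to 24914, minus strand, overlapping Ppse_ynau_048340) had 9.17, 12.7 and 12.5 FPKM in the 15A libraries, 8.77, 6.92 and 7.08 in 15N, 5.06, 5.52 and 4.80 in 15AN, and 31.1, 29.2 and 29.6 in CK. Every treated library was below every CK library. It fell in every treatment against CK, at a log2 fold change of -1.32 ± 0.12 for 15A (adjusted p = 1.3e-05, limma), -1.85 ± 0.12 for 15N (adjusted p = 1.4e-06) and -2.34 ± 0.12 for 15AN (adjusted p = 5.8e-07). Among the treatments, 15AN was lowest, and its 3 libraries lay below all those of 15N and 15A. It fell by 1.01 ± 0.12 in 15AN against 15A (adjusted p = 1.8e-04). That call rests on the threshold, since the log2 fold change was -0.94 without 15A replicate 2, -0.95 without 15A replicate 3 and -0.97 without 15AN replicate 3. It was -0.71 with the same total per library, -0.69 with a pseudocount of 5 and -0.96 with the median of ratios, none of them a call. The level was also lower in 15N than in 15A (-0.53 ± 0.12, adjusted p = 0.013) and in 15AN than in 15N (-0.48 ± 0.12, adjusted p = 0.016), both under the 2-fold threshold. The library with the most leaf marker RNA, 15A replicate 1, had the lowest XLOC_114777 value of its group and the highest value of the other epimerase, XLOC_011898.

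XLOC_011898 (C4943181, 1785 to 5641, plus strand, overlapping Ppse_ynau_015578) had 4.59, 4.06 and 3.60 FPKM in 15A, 3.78, 4.001 and 4.11 in 15N, 5.12, 5.82 and 5.20 in 15AN, and 11.2, 11.2 and 12.2 in CK. It fell by 1.30 ± 0.09 on the log2 scale for 15A (adjusted p = 2.2e-06) and by 1.33 ± 0.09 for 15N (adjusted p = 1.9e-06). In 15AN it was lower than in CK by a log2 fold change of -0.97 ± 0.09 (adjusted p = 2.2e-05), just under the threshold, and it passed at -1.02 without 15AN replicate 2. Unlike at XLOC_114777, the 15AN libraries were the highest of the treated ones. The level was above that of 15A by 0.33 ± 0.09 (adjusted p = 0.02) and above that of 15N by 0.36 ± 0.09 (adjusted p = 0.017), neither of which was called. With a pseudocount of 5, the log2 fold changes against CK were -0.86 in 15A and -0.88 in 15N, which are no calls. The 2 loci have the same best protein match, epimerase 1 of Morus notabilis, and reads that match both were shared between them by estimate, with the correction for reads of several matches in Cuffquant, so that their separate levels are uncertain.

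Summed over both loci, epimerase FPKM averaged 15.6 ± 1.58 in 15A, 11.6 ± 0.866 in 15N, 10.5 ± 0.726 in 15AN and 41.5 ± 1.02 in CK. A ratio within a library does not move with the scaling of that library, and such ratios were added after the values were seen. Set against the summed pyrophosphorylase loci of the step before, the epimerase sum was 0.109 to 0.119 in 15A, 0.0881 to 0.105 in 15N, 0.0786 to 0.0975 in 15AN and 0.294 to 0.304 in CK. The treated libraries thus lay apart from CK on this measure too. The ratio of XLOC_114777 to XLOC_011898 was 1.997 to 3.477 in 15A, 1.72 to 2.32 in 15N, 0.923 to 0.989 in 15AN and 2.43 to 2.77 in CK. The 15AN range did not meet that of any other group, so that the 2 loci, of which XLOC_114777 had the higher level in the other groups, were at about the same FPKM in 15AN.

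**Figure D2:**
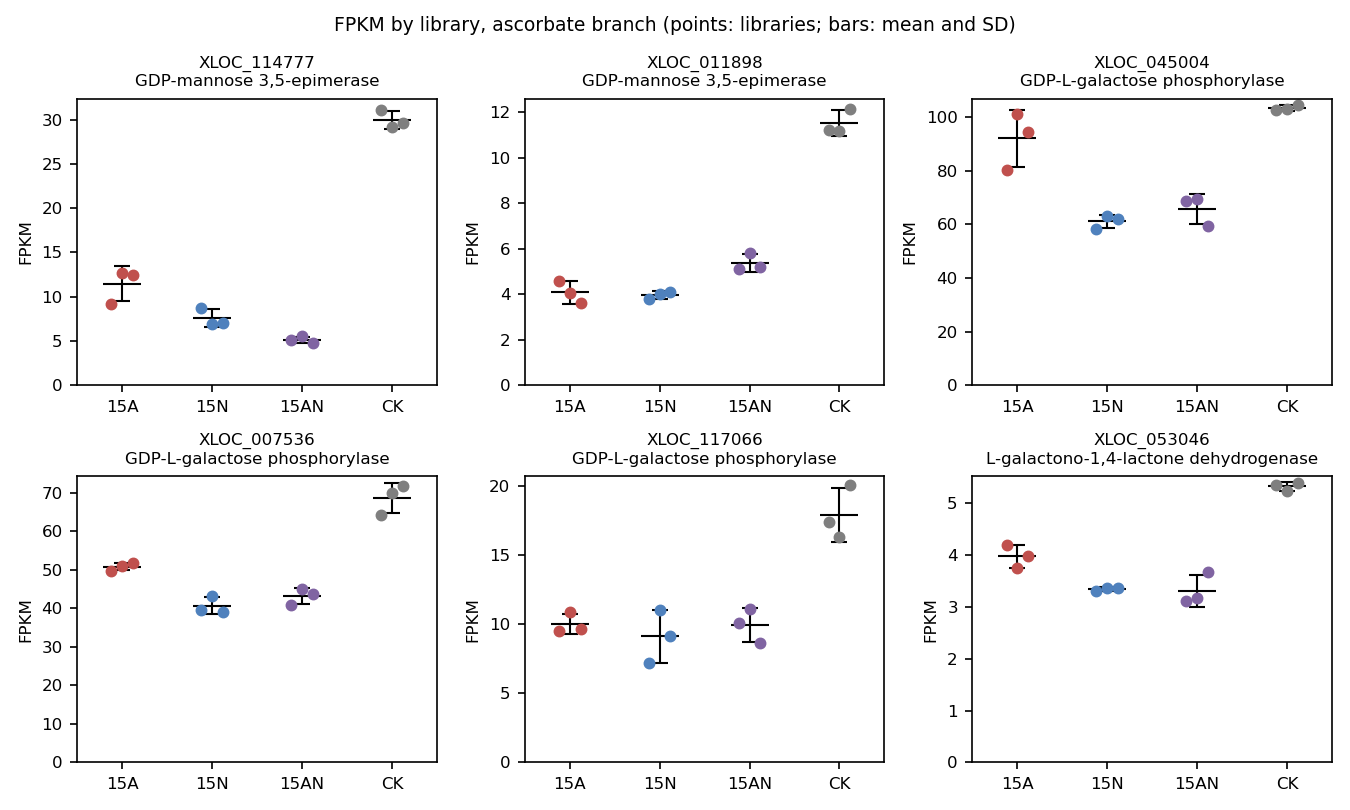
FPKM of 6 loci of the ascorbate branch in each library (points) with the mean and SD of each group (bars, n = 3), for 15A, 15N, 15AN and CK from left to right. Both epimerases and the lactone dehydrogenase have every treated library below CK, and XLOC_045004 has its 15A libraries at 80.3 to 101 FPKM, close to CK.

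GDP-L-galactose phosphorylase catalyses the first step that is committed to ascorbate, and its Arabidopsis genes are VTC2 and VTC5. All 4 loci were tested and none was called against CK with the FPKM as deposited. With the same total per library, XLOC_117066 was called lower in all treatments (-1.37 for 15A, -1.41 for 15N, -1.07 for 15AN), XLOC_007536 in 15A (-1.05) and 15N (-1.27), and XLOC_045004 in 15N (-1.28). XLOC_045004 (scaffold1555, 72678 to 90581, plus strand) was the most abundant, with 80.3, 101 and 94.5 FPKM in 15A, 58.3, 63.1 and 61.9 in 15N, 68.5, 69.4 and 59.2 in 15AN, and 103, 103 and 104 in CK. The 15N and 15AN libraries lay below all 15A and CK libraries. Against CK the log2 fold change was -0.17 ± 0.09 for 15A (adjusted p = 0.14, 95% interval -0.37 to 0.03), -0.75 ± 0.09 for 15N (adjusted p = 7.9e-05) and -0.65 ± 0.09 for 15AN (adjusted p = 2.6e-04). Against 15A it was -0.58 ± 0.09 for 15N (adjusted p = 0.0016) and -0.48 ± 0.09 for 15AN (adjusted p = 0.0026). With the same total per library, 15A was at -0.80 against CK (adjusted p = 7.4e-04) and 15AN at -0.14 against 15A (adjusted p = 0.44).

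XLOC_007536 (C4912049, 6395 to 17056, plus strand) had 49.8, 51.0 and 51.7 FPKM in 15A, 39.6, 43.1 and 39.1 in 15N, 40.9, 45.0 and 43.7 in 15AN, and 64.3, 70.0 and 71.9 in CK. No treated library reached the CK range. Its log2 fold changes against CK were -0.43 ± 0.06 for 15A (adjusted p = 3.6e-04), -0.74 ± 0.06 for 15N (adjusted p = 8.4e-06) and -0.66 ± 0.06 for 15AN (adjusted p = 2.7e-05). It was again lower than in 15A in the groups with nitrate, at -0.32 ± 0.06 for 15N (adjusted p = 0.0067) and -0.23 ± 0.06 for 15AN (adjusted p = 0.019). The value for 15AN against 15A changed sign, to 0.10, with libraries scaled to the same total.

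XLOC_117066 (scaffold4700, 217274 to 225479, minus strand) had 9.51, 10.8 and 9.64 FPKM in 15A, 7.18, 11 and 9.17 in 15N, 10.1, 11.1 and 8.65 in 15AN, and 17.3, 16.3 and 20.1 in CK, again with CK above all treated libraries. It had the largest differences of the 4 phosphorylase loci, at -0.78 ± 0.14 for 15A (adjusted p = 0.0012), -0.91 ± 0.14 for 15N (adjusted p = 4.3e-04) and -0.79 ± 0.14 for 15AN (adjusted p = 0.0013). In 15N it was called, at -1.05, without 15N replicate 2, and so was its interaction, at 1.03. XLOC_072103, the least abundant of the 4, averaged 5.68 ± 0.295 FPKM in 15A, 5.90 ± 0.654 in 15N, 7.66 ± 0.577 in 15AN and 6.33 ± 0.715 in CK, and no adjusted p against CK was under 0.05 in limma. The 95% intervals against CK were -0.36 to 0.10 in 15A, -0.32 to 0.14 in 15N, and for 15AN 0.01 to 0.47. It was higher in 15AN than in 15A (0.37 ± 0.10, adjusted p = 0.017) and than in 15N (0.33 ± 0.10, adjusted p = 0.038). The 4 loci together summed to 145 to 169 FPKM in 15A, 111 to 124 in 15N, 119 to 134 in 15AN and 191 to 203 in CK. Over the pyrophosphorylase sum of the same library, this was 1.13 to 1.20 in 15A, 0.910 to 1.01 in 15N, 0.977 to 1.15 in 15AN and 1.38 to 1.45 in CK.

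**Figure D3:**
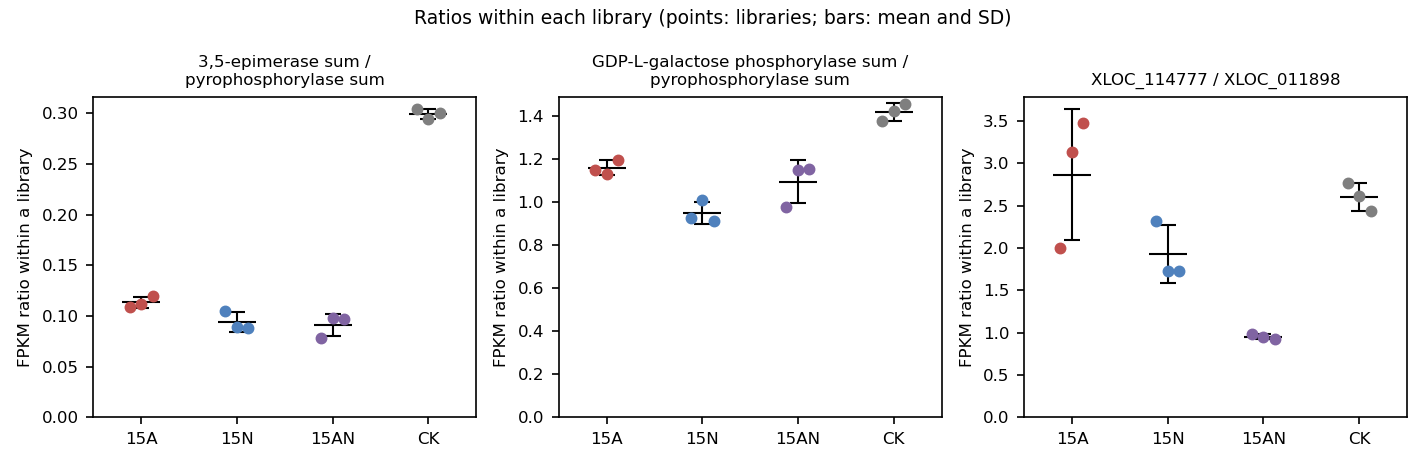
Ratios of FPKM within each library (points) with the mean and SD of each group (bars, n = 3): epimerase sum over pyrophosphorylase sum, GDP-L-galactose phosphorylase sum over pyrophosphorylase sum, and XLOC_114777 over XLOC_011898. In the first panel CK lies at 0.294 to 0.304 and the treated libraries at 0.0786 to 0.119, and in the third panel 15AN lies below 1.

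L-galactono-1,4-lactone dehydrogenase makes ascorbate in the last step. XLOC_053046 (scaffold17390, 12498 to 19306, minus strand) had 4.20, 3.76 and 3.99 FPKM in 15A, 3.31, 3.37 and 3.37 in 15N, 3.11, 3.17 and 3.67 in 15AN, and 5.35, 5.24 and 5.39 in CK. The CK libraries were above all others. The log2 fold changes against CK were -0.35 ± 0.09 for 15A (adjusted p = 0.0093), -0.54 ± 0.09 for 15N (adjusted p = 7.0e-04) and -0.55 ± 0.09 for 15AN (adjusted p = 7.2e-04), none of them a call. Only the CK mean of this locus, 5.33 FPKM, reached the level for testing. The direction of these differences is therefore not independent of that filter. A further locus of this name on the same scaffold, XLOC_053047 at 19511 to 19912, was listed at 0 in every library.

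The other expressed lactone dehydrogenase, XLOC_025156 (scaffold11162, 6238 to 8792, plus strand), stayed under the level for testing and had a pattern of its own. It had 1.48, 1.74 and 1.55 FPKM in 15A, 3.25, 3.06 and 3.79 in 15N, 0.608, 0.699 and 0.566 in 15AN, and 1.15, 1.04 and 0.585 in CK. The 15N libraries were the highest and did not overlap with any other group. In the fit over all loci above 1 FPKM, it rose in 15N against CK (log2 fold change 1.19 ± 0.13, adjusted p = 6.2e-05) and fell by 1.42 ± 0.13 in 15AN against 15N (adjusted p = 6.1e-05). Its interaction of ammonium and nitrate, the log2 fold change of 15AN against 15A less that of 15N against CK, was -1.86 ± 0.19 in that fit (adjusted p = 3.6e-05), a call in the negative direction, as for 9.0% of the loci of that fit. These levels are low, and the pseudocount of 1 makes the fold smaller than that of the FPKM.

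The steps that make GDP-mannose had members in both directions. Of 6 tested loci, limma placed 2 higher and 1 lower at an adjusted p under 0.05 in 15A and in 15N alike, while 15AN had 1 higher and 2 lower, with 0 called in each. Of all tested loci, 30.6% were higher and 20.5% lower in 15A, 28.9% and 20.8% in 15N, and 26.1% and 19.2% in 15AN. Counts among 6 loci are too small to be told apart from these shares. Mannose-6-phosphate isomerase, which makes mannose-6-phosphate from fructose-6-phosphate, had 2 loci. XLOC_063242, the more abundant, had 26.9, 39.9 and 38.3 FPKM in 15A, 37.6, 37.8 and 40.7 in 15N, 31.3, 32.7 and 31.8 in 15AN, and 27.5, 24.7 and 25.3 in CK. Only 15A replicate 1 lay within the CK range among the treated libraries. The log2 fold change was 0.41 ± 0.12 for 15A (adjusted p = 0.02), 0.57 ± 0.12 for 15N (adjusted p = 0.0037) and 0.29 ± 0.12 for 15AN (adjusted p = 0.08). XLOC_014516 averaged 25.4 ± 4.92 FPKM in 15A, 22.9 ± 1.42 in 15N, 22.9 ± 0.801 in 15AN and 16.7 ± 0.631 in CK, at log2 fold changes of 0.57, 0.43 and 0.44 in the treatments (standard error 0.11 each, adjusted p = 0.0018, 0.0088 and 0.0093). With libraries scaled to the same total some of these values turned, to -0.20 for XLOC_063242 in 15A and to -0.03 in 15A and -0.07 in 15N for XLOC_014516.

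Phosphomannomutase, which moves the phosphate of mannose-6-phosphate to the first carbon, had 1 locus, XLOC_013128. It had 18.9, 24.7 and 22.7 FPKM in 15A, 20.2, 27.9 and 14.2 in 15N, 27.2, 22.2 and 24.1 in 15AN, and 15.8, 20.4 and 19.8 in CK. The groups overlapped except for 15AN and CK. Its log2 fold changes against CK were 0.23, 0.11 and 0.38 in 15A, 15N and 15AN, with a standard error of 0.21 and 95% intervals of -0.23 to 0.69, -0.35 to 0.57 and -0.08 to 0.84.

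GDP-mannose pyrophosphorylase joins mannose-1-phosphate to GDP, and a gene for it in Arabidopsis is VTC1. XLOC_075938 (scaffold23418, 18844 to 23212, minus strand) was the most abundant of all members, with 103, 129 and 121 FPKM in 15A, 102, 99.2 and 107 in 15N, 106, 102 and 91.2 in 15AN, and 117, 119 and 118 in CK. Its log2 fold changes against CK were -0.01 ± 0.09 for 15A (adjusted p = 0.95, 95% interval -0.20 to 0.19), -0.20 ± 0.09 for 15N (adjusted p = 0.088) and -0.24 ± 0.09 for 15AN (adjusted p = 0.046). XLOC_065505, described as the alpha form, averaged 11.1 ± 0.784 FPKM in 15A, 12.4 ± 0.961 in 15N, 11.9 ± 0.419 in 15AN and 16.1 ± 0.487 in CK. It was lower than in CK in each treatment, at -0.50, -0.35 and -0.41 (standard error 0.07 each, adjusted p = 2.9e-04, 0.0027 and 0.0013), none of which was called. The third locus, XLOC_098051, spans 257 nt, and its libraries varied between 0 and 11.4 FPKM within 15AN alone, with a standard error of 0.82 on its log2 fold changes. It was not called in any comparison, but without 15AN replicate 1 it was called lower in 15AN against 15A (-2.13), in 15AN against 15N (-2.23) and in the interaction (-2.86).

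**Figure D4:**
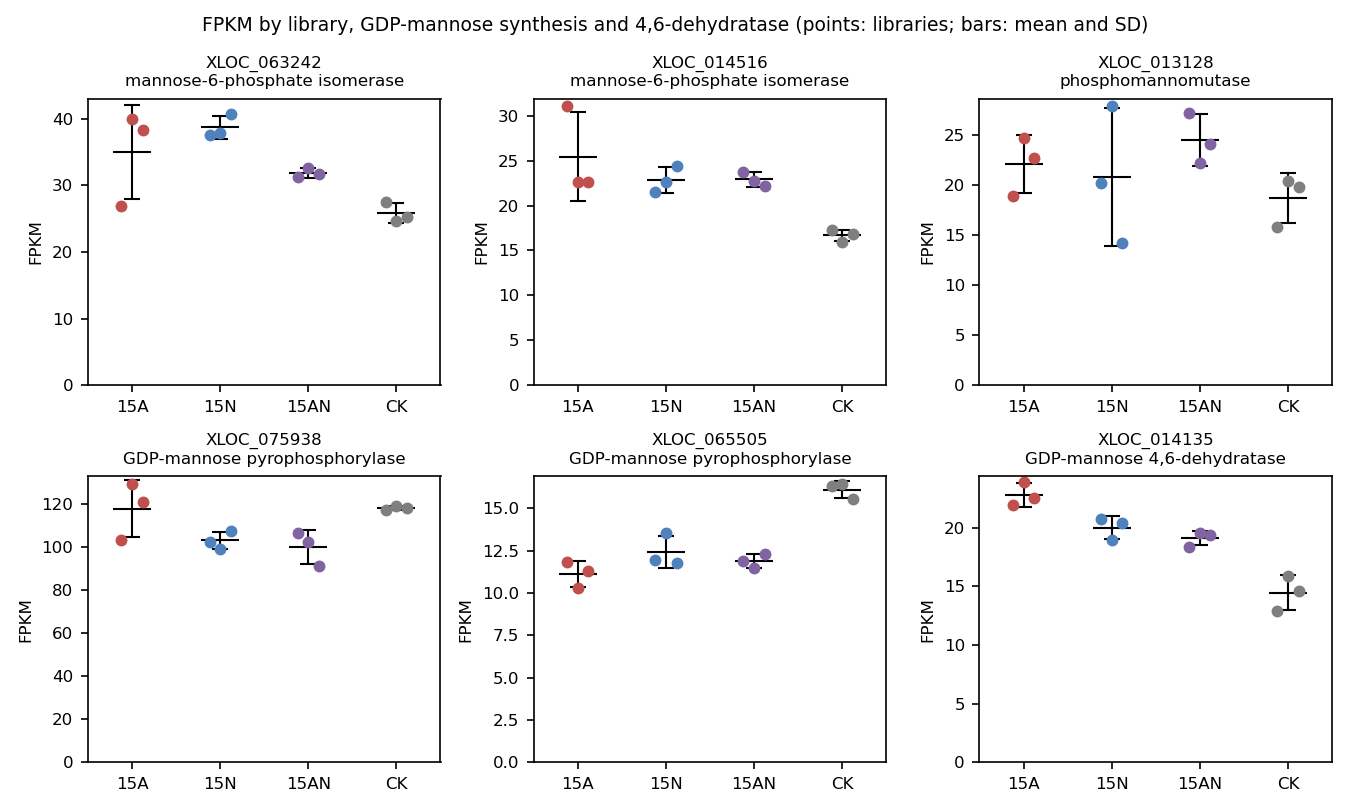
FPKM of 5 loci of GDP-mannose synthesis and of a GDP-mannose 4,6-dehydratase in each library (points) with the mean and SD of each group (bars, n = 3). The isomerases and the dehydratase XLOC_014135 have CK at the low end, XLOC_065505 has CK at the high end, and the groups of XLOC_075938 overlap between 15A and CK.

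GDP-mannose 4,6-dehydratase starts the route to GDP-L-fucose, and MUR1 is an Arabidopsis gene for it. XLOC_014135 (C4953647, 41044 to 45687, minus strand) had 21.9, 23.9 and 22.6 FPKM in 15A, 20.8, 18.9 and 20.4 in 15N, 18.4, 19.5 and 19.4 in 15AN, and 12.9, 15.9 and 14.6 in CK. All treated libraries were above all CK libraries. It was higher than in CK by 0.62 ± 0.08 for 15A (adjusted p = 9.3e-05), 0.45 ± 0.08 for 15N (adjusted p = 9.0e-04) and 0.38 ± 0.08 for 15AN (adjusted p = 0.0027), under the 2-fold threshold. With libraries scaled to the same total 15A was at 0.03, 15N at -0.06 and 15AN at 0.11. XLOC_077060, which overlaps no annotated gene, ranged from 5.31 to 8.23 FPKM over the 12 libraries and differed from CK at no adjusted p under 0.05, with 95% intervals of -0.01 to 0.57 in 15A, -0.33 to 0.25 in 15N, and for 15AN -0.22 to 0.36.

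GDP-mannose transporters of the GONST family carry GDP-sugars into the Golgi, where glycans are built. In Arabidopsis, GONST1 carries GDP-mannose and GONST4 carries GDP-fucose. Of 2 loci that match GONST4, 1 was called between groups and both were called in the interaction. XLOC_121105 (scaffold5472, 23150 to 25097, plus strand) had 3.35, 2.76 and 2.67 FPKM in 15A, 3.28, 3.504 and 3.501 in 15N, 7.09, 7.35 and 8.38 in 15AN, and 3.17, 3.93 and 3.74 in CK. Its 15AN libraries stood above all the others. It rose in 15AN against 15A (log2 fold change 1.13 ± 0.11, adjusted p = 4.5e-05), though with a pseudocount of 5 the value was 0.67 and no call. Only its 15AN mean, 7.61 FPKM, reached the level for testing. Its calls in 15AN against 15A and in the interaction are therefore not independent of that filter. Against 15N, 15AN was higher by 0.96 ± 0.11 (adjusted p = 1.8e-04) and against CK by 0.90 ± 0.11 (adjusted p = 1.2e-04), both under the threshold. 15A and 15N were at -0.23 ± 0.11 and -0.06 ± 0.11 against CK (adjusted p = 0.11 and 0.70).

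XLOC_082576 (scaffold2553, 51271 to 55508, minus strand) had 6.84, 3.92 and 6.26 FPKM in 15A, 5.77, 4.97 and 4.29 in 15N, 7.93, 7.39 and 6.74 in 15AN, and 9.77, 10.2 and 10.4 in CK. The CK libraries were the highest. Against CK its log2 fold changes were -0.76 ± 0.16 for 15A (adjusted p = 0.0031), -0.89 ± 0.16 for 15N (adjusted p = 0.0012) and -0.41 ± 0.16 for 15AN (adjusted p = 0.063). The ratio of XLOC_121105 to XLOC_082576 within a library was 0.427 to 0.706 in 15A, 0.569 to 0.817 in 15N, 0.894 to 1.24 in 15AN and 0.325 to 0.387 in CK.

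The locus that matches GONST1 itself, XLOC_049156 (scaffold16495, 32960 to 45286, minus strand), was the most abundant transporter. It had 51.6, 47.5 and 59.5 FPKM in 15A, 57.5, 49.0 and 49.1 in 15N, 51.6, 45.9 and 56.4 in 15AN, and 33.9, 35.6 and 31.4 in CK. Every treated library was above CK. The log2 fold changes were 0.63, 0.61 and 0.59 in 15A, 15N and 15AN (standard error 0.11 each, adjusted p = 7.0e-04, 9.2e-04 and 0.0013), and with the same total per library they were 0.02, 0.09 and 0.31. XLOC_062564 and XLOC_078576, which are GONST1-like, ranged from 18.9 to 37.1 and from 14.7 to 26.2 FPKM over all libraries. Neither passed an adjusted p of 0.05 against CK. The remaining expressed locus, XLOC_087271, matches GONST2 and ranged from 0.161 to 1.13 FPKM. The loci that match GONST3 were listed at 0.

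**Figure D5:**
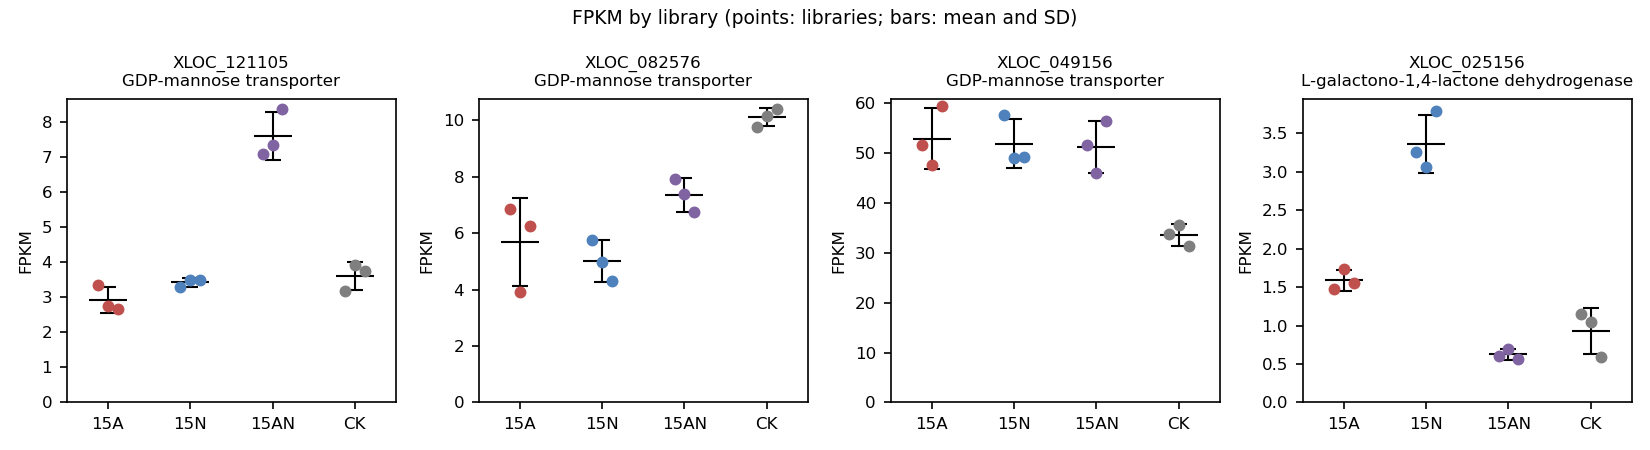
FPKM in each library (points) with the mean and SD of each group (bars, n = 3) for the transporters XLOC_121105, XLOC_082576 and XLOC_049156 and for the lactone dehydrogenase XLOC_025156. XLOC_121105 is highest in 15AN at 7.09 to 8.38 FPKM, and XLOC_025156 is highest in 15N at 3.06 to 3.79 FPKM.

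Compared with each other, the treatments had few members called, in counts near the background. In 15N against 15A, limma called 0 of 20 members, while 4.59% of all loci were called, and at an unadjusted p under 0.05 there were 0 members higher, against 15.8% of all loci, and 5 lower, against 20.2%. In 15AN against 15A, 1 member was called higher (XLOC_121105, against 3.18% of all loci) and 1 lower (XLOC_114777, against 4.64%). XLOC_121105 was tested only through its level in 15AN. In 15AN against 15N, 0 members were called, against 6.19% of all loci, and at an unadjusted p under 0.05 there were 4 higher, against 18.4% of all loci, and 1 lower, against 20.7%. At an adjusted p under 0.05 and any fold, limma placed 0 members higher and 3 lower in 15N against 15A. It placed 3 higher and 4 lower in 15AN against 15A, and 3 higher and 1 lower in 15AN against 15N. The shares of all loci at that level were not counted. The comparisons of 15N and 15AN with 15A share the 15A libraries.

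The interaction asks whether nitrate had the same effect with ammonium (15AN against 15A) as without it (15N against CK). Of the 20 members, 3 were called positive, against 10.2% of all loci, and 0 negative, against 12.3%. The lactone dehydrogenase XLOC_025156, which is not among the 20, was called negative at -1.86 in the fit over all loci above 1 FPKM. XLOC_011898 had an interaction of 1.67 ± 0.13 (adjusted p = 4.8e-06), as nitrate went with a log2 fold change of 0.33 with ammonium and -1.33 without it. XLOC_082576 had 1.24 ± 0.23 (adjusted p = 0.0014), from 0.35 with ammonium and -0.89 without. XLOC_121105 had 1.19 ± 0.16 (adjusted p = 1.5e-04), from 1.13 with ammonium and -0.06 without, and it was tested only through its level in 15AN. The 7 loci of the ascorbate branch had a median interaction of 0.51. The median of the 20 tested members was 0.16, and that of all tested loci was -0.08 as deposited and 0.72 with the same total per library.

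Other genes around the pathway were collected by description and counted. The later steps from GDP-L-galactose to the lactone had 3 loci, of which 2 were tested, and 1 fell in 15AN against CK, where 6.93% of all tested loci fell. Named after its values were seen, this was XLOC_143382, L-galactose-1-phosphate phosphatase, with 48.5 ± 10.2 FPKM in 15A, 38.9 ± 2.65 in 15N, 21.6 ± 0.777 in 15AN and 53.2 ± 2.46 in CK. It fell by 1.26 in 15AN against CK (adjusted p = 4.0e-05) and by 1.11 against 15A (adjusted p = 1.5e-04). Of 5 loci of other proposed routes to ascorbate 2 were tested. Among them, inositol oxygenase XLOC_143793, which opens inositol to glucuronate, had 39.8, 53.0 and 59.6 FPKM in 15A, 18.6, 20.7 and 19.4 in 15N, 19.0, 20.9 and 18.9 in 15AN, and 65.0, 78.3 and 68.1 in CK. It fell against CK at -1.79 for 15N (adjusted p = 2.7e-06) and -1.79 for 15AN (adjusted p = 4.4e-06), and against 15A at -1.31 each. The other tested locus of these routes, named after its values were seen, was XLOC_139664, described as a putative gulonolactone oxidase, the enzyme of the last step of the animal route to ascorbate. It had 1.28, 4.67 and 3.74 FPKM in 15A, 3.68, 3.70 and 2.97 in 15N, 7.89, 7.42 and 6.25 in 15AN, and 3.73, 3.66 and 2.28 in CK. The 15AN libraries were above all others. It rose in 15AN against 15A (log2 fold change 1.05 ± 0.30, adjusted p = 0.021), where 15A replicate 1 was the lowest library, and was at 0.97 ± 0.30 in 15AN against CK (adjusted p = 0.023), which is no call. Only its 15AN mean, 7.19 FPKM, reached the level for testing, so the call is not independent of that filter.

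Of 36 loci described as enzymes that recycle or use ascorbate, 16 were tested. Against CK, 1 rose and 1 fell in 15A, 0 rose and 0 fell in 15N, and 0 rose and 1 fell in 15AN. Their median log2 fold change against CK was -0.08, -0.03 and -0.20 with 15A, 15N and 15AN. In 15AN against 15A 3 fell, against 4.64% of all tested loci. Named after their values were seen, these were a locus described as an ascorbate oxidase homolog, an ascorbate oxidase-like locus and a reductase. Whether the products of the first 2 oxidise ascorbate was not tested. XLOC_132353, an ascorbate oxidase homolog and the locus that rose in 15A, had 42.0, 32.1 and 31.6 FPKM in 15A, 11.2, 13.6 and 12.9 in 15N, 8.22, 8.75 and 7.89 in 15AN, and 8.998, 9.36 and 9.14 in CK. The 15A libraries were far above all others. It rose by 1.82 ± 0.11 on the log2 scale in 15A against CK (adjusted p = 7.4e-07), and fell by 1.95 ± 0.11 in 15AN against 15A (adjusted p = 1.6e-06). The ascorbate oxidase-like locus, XLOC_006426, was at 52.5 ± 9.84 FPKM in 15A, 49.5 ± 0.307 in 15N, 18.6 ± 1.69 in 15AN and 28.6 ± 0.516 in CK. The monodehydroascorbate reductase XLOC_055974, which regenerates ascorbate, was at 51.4 ± 9.67 FPKM in 15A, 48.9 ± 0.791 in 15N, 24.5 ± 1.04 in 15AN and 26.0 ± 4.32 in CK. Of 38 loci that use GDP-mannose or GDP-fucose, 16 were tested, and 1 rose in 15N and 1 fell in 15AN against CK. Their medians against CK were 0.18, 0.25 and 0.25 with 15A, 15N and 15AN. Of 13 loci of carbon entry, 9 were tested and 1 rose in every treatment against CK, with medians of 0.38, 0.32 and 0.26 for the list. All tested loci had medians of 0.08, 0.08 and 0.07. Against CK, 5.3% to 7.64% of all tested loci were called in each direction, depending on the treatment. The called counts of these lists against CK are near that background. The hexokinase that rose was XLOC_016775, which phosphorylates hexoses, with 66.0, 63.6 and 61.4 FPKM in 15A, 68.5, 67.6 and 68.5 in 15N, 54.4, 51.7 and 49.9 in 15AN, and 22.8, 25.3 and 27.4 in CK. Its log2 fold changes were 1.31 for 15A (adjusted p = 3.1e-07), 1.41 for 15N (adjusted p = 2.2e-07) and 1.02 for 15AN (adjusted p = 2.7e-06).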

How the data were processed

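RNA-seq was measured in 12 root libraries. The authors removed ribosomal RNA, aligned reads to the P. notoginseng genome with TopHat2 2.0.13, assembled loci with Cufflinks 2.2.1, quantified them with Cuffquant and its multi-read correction and computed FPKM with Cuffnorm 2.2.1, and deposited FPKM for 146330 loci with positions and database descriptions. Read counts per locus were not used here, so edgeR, which the study used, was not run. Groups followed the sample labels. The FPKM kept the authors' scaling and entered, with a pseudocount of 1, a single limma 3.58.1 model of the 4 groups (eBayes with trend, R 4.3.3), with two-sided p-values adjusted by Benjamini-Hochberg over the 22592 loci tested. A fold change on the log2(FPKM + 1) scale understates the change of low loci. The method was tested on simulated data.

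The members and lists were chosen with earlier results of these data known. Named members are those called in any comparison and the most abundant locus of each enzyme class, with others by range, counts or means. Other pathway genes are named where called in at least 2 treatments against CK with a group mean of at least 20 FPKM, unless said otherwise. No 2 libraries held identical values. Alternatives were other pseudocounts, filters, scalings, a replicate block, a fit of the 2 groups compared and leaving out each library. Enzyme sequences are not shown. Figures were drawn with matplotlib 3.10.9.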

Additional observations from a re-analysis of the deposited data

Results flagged for a closer look

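For 4 loci the effect of nitrate with and without ammonium differed past both thresholds of a call, by the test of the difference itself. Of these, 3 are among the 20 tested members, all positive, while 10.2% of all tested loci were called positive and 12.3% negative. That count is not above the background, and XLOC_121105 was tested only through its level in 15AN. At an adjusted p under 0.05 and any fold, limma placed 8 of the 20 members positive and 4 negative. The share of all loci at that level was not counted. The difference, as the log2 fold change of 15AN against 15A less that of 15N against CK, was 1.67 for the GDP-mannose 3,5-epimerase XLOC_011898, 1.24 for the GONST4-like transporter XLOC_082576 and 1.19 for the GONST4-like transporter XLOC_121105. For the lactone dehydrogenase XLOC_025156, tested in the fit over all loci above 1 FPKM, it was -1.86, in the opposite direction. With a pseudocount of 5 the values of the transporters were 0.82 and 0.70, under the threshold of 1, and with quantile normalization that of XLOC_121105 was 0.81. The part of leaf marker RNA, whose summed level was higher in CK than in 15N and 15AN, was not tested.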

How the results depend on the processing

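Members called depended on scaling and pseudocount. With the same total FPKM per library the counts against CK were 6 for 15A, 6 for 15N and 3 for 15AN, with 1 in 15AN against 15A, 1 in 15AN against 15N and 10 in the interaction. With the median of ratios they were 2 in 15AN against CK, 1 in 15AN against 15A and 5 in the interaction, and with quantile normalization 2 in 15AN against CK. A pseudocount of 5 left 1 member called for 15A and 1 for 15N against CK, 0 for 15AN against 15A and 1 for the interaction, and a pseudocount of 0.1 gave 3 in 15AN against CK and 1 in 15AN against 15N. At a mean of at least 10 FPKM, XLOC_121105 was no longer tested, which left 1 member called in 15AN against 15A. The fit over all loci above 1 FPKM took in XLOC_025156. Its calls were in 15N against CK, in 15AN against 15N, where it was the 1 member called, and in the interaction. Leaving out single libraries gave, against CK, 2 to 2 members for 15A, 2 to 3 for 15N, 1 to 2 for 15AN, and 0 to 0 in 15N against 15A, 1 to 3 in 15AN against 15A, 0 to 1 in 15AN against 15N and 3 to 4 in the interaction. With the same total, signs turned for XLOC_014516 (-0.034 in 15A and -0.075 in 15N against CK), XLOC_063242 (-0.20 in 15A), XLOC_014135 (-0.058 in 15N against CK and 0.082 in 15AN against 15A) and XLOC_007536 (0.10 in 15AN against 15A). The cause was not tested. Scaling also moved the calls over all loci: in 15A against CK 1693 higher and 1540 lower became 637 and 4447 with the same total and 1317 and 1925 with the median of ratios. With the same total, 1548 and 1727 became 709 and 3735 in 15N against CK, 1197 and 1566 became 747 and 2364 in 15AN against CK, 442 and 595 became 509 and 457 in 15N against 15A, 719 and 1049 became 1443 and 596 in 15AN against 15A, 632 and 766 became 1001 and 549 in 15AN against 15N, and 2315 and 2778 became 7451 and 986 in the interaction, or 2861 and 2203 with the median of ratios. The replicate block left 2 members called with 15A, 2 with 15N and 1 with 15AN against CK, 0 in 15N against 15A, 2 in 15AN against 15A, 0 in 15AN against 15N and 3 in the interaction, and changed no call. Same-numbered libraries of different groups correlated at r of -0.10 to 0.05 in their deviations from the group means. Those with different numbers correlated at -0.07 to 0.09, so no pairing by number was seen on this measure.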
